A study of Homo sapiens with 12 samples.

Results

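The Msi2 knockdown was compared with the Msi1 knockdown directly, without control libraries in the test. MSI1 and MSI2 encode Musashi-1 and Musashi-2, related proteins that each bind RNA through a pair of RNA recognition motifs. They attach to short UAG-containing sites, mostly in 3′ untranslated regions, and alter the translation and stability of the bound mRNA. Both are known from neural and blood stem cells and from carcinomas, among them pancreatic carcinoma, and they share much of their RNA-binding sequence, so a direct contrast shows which RNAs differ in level when one or the other is depleted.

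The cells were MIA PaCa-2, a human cell line long established from a pancreatic carcinoma. Lentiviruses carried a short hairpin RNA (shRNA) against Musashi-1 with a GFP tag, an shRNA against Musashi-2 with a Tomato Red tag, or a scrambled shRNA. After 72 hours of infection, cells were sorted as GFP, Tomato Red or double positive, and total RNA was sequenced. The Msi1 knockdown group therefore received the Musashi-1 shRNA and the Msi2 knockdown group the Musashi-2 shRNA. The double knockdown received both, and the control group the scrambled shRNA. All groups are one cell line under lentiviral infection. The sources used here do not give the number of hairpins per gene or the tag of the control virus. Fluorescent tag, sort gate and hairpin differ together between the compared groups, so their contributions cannot be told apart.

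The comparison used 6 of 12 libraries, 3 per group, chosen by their sample titles. Of 24528 genes in the table, 14629 passed the low-count filter in these libraries and were tested with edgeR's quasi-likelihood test. Log2 changes are the Msi2 knockdown minus the Msi1 knockdown, ± the standard error, and "higher" and "lower" refer to the Msi2 knockdown. A gene is called at a Benjamini-Hochberg adjusted p below 0.05 over all tested genes. Levels are counts per 1e6 after scaling (CPM), listed for replicates 1, 2 and 3. Control and double knockdown levels are given beside them as description. No label says whether replicates came from separate cultures. The p-values therefore measure the spread between these samples alone, and that spread may be technical.

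Total estimated counts, in units of 1e6, were 26.8 to 38.9 in the Msi1 knockdown and 39.7 to 53.01 in the Msi2 knockdown, so depth differed between the groups. With all 6 libraries thinned to the smallest total, 5073 genes were called, against 5356 without thinning. Pairs of replicates differed by more than the sampling of counts: their chi-square divided by its degrees of freedom was 3.91 to 33.7, where sampling alone gives about 1. The counts are estimates, and whether any pair came from the same library was not tested. Of the carcinoma line's defining genes, 6 were tested, with 0 higher and 1 lower, KRT19 (log2 -0.57, edgeR adjusted p = 0.00027). KRT8 (mean 1250.5 and 1167 CPM in the Msi1 and Msi2 knockdown) and KRT18 were abundant and not called. CDH1, the epithelial cadherin, was at 1.01, 0.353 and 0.437 CPM in the Msi1 knockdown and 0.326, 0.298 and 0.234 CPM in the Msi2 knockdown, the lowest level among the line's epithelial markers named here. It did not pass (log2 -1.10, edgeR adjusted p = 0.0548) but was called in 6 of the 13 alternative settings that tested it.

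The targeted genes came first. MSI1 was at 1.62, 1.94 and 1.97 CPM in the Msi1 knockdown and at 6.99, 5.37 and 6.02 CPM in the Msi2 knockdown. MSI2 was at 52.1, 56.6 and 53.5 CPM in the Msi1 knockdown and at 15.1, 17.3 and 12.5 CPM in the Msi2 knockdown. Each gene was lowest, of these groups, in the cells with its own shRNA, and the libraries did not overlap. MSI1 was higher by log2 1.72 ± 0.14 (edgeR adjusted p = 9.9e-06) and MSI2 lower, at -1.87 ± 0.10 (edgeR adjusted p = 7.2e-07). Control cells had a mean of 4.54 CPM of MSI1 and 82.9 CPM of MSI2. MSI2 in the Msi1 knockdown thus lay below the control mean as well, and MSI1 in the Msi2 knockdown above it. In bulk RNA, fewer cells of a type and less RNA per cell cannot be told apart.

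**Figure D1:**
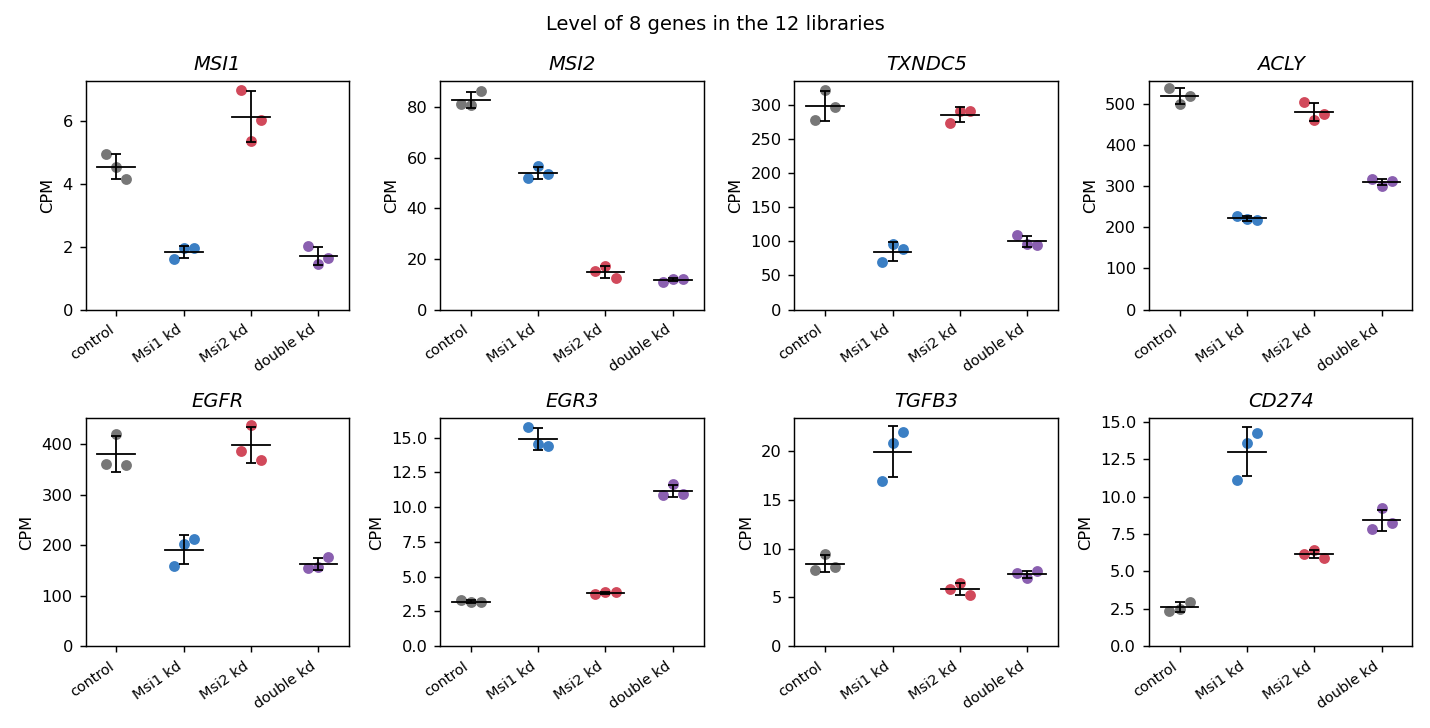
Levels of MSI1, MSI2 and 6 other genes in counts per 1e6 (CPM, linear axes from 0) by group; points are the 12 libraries, long bars the group means and error bars the SD (n = 3), with kd for knockdown. MSI1 is lowest in the Msi1 and double knockdowns and MSI2 in the Msi2 and double knockdowns, while TXNDC5, ACLY and EGFR are lower and EGR3, TGFB3 and CD274 higher in the Msi1 than in the Msi2 knockdown.

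Of the 14629 tested genes, 5356 (36.6%) were called, 2730 higher (18.7%) and 2626 lower (18%). Most differences were small, with a median size of 1.32-fold among the called genes. At least 2-fold differences were seen for 406 genes (2.78%), 133 higher (0.909%) and 273 lower (1.87%), and at least 4-fold differences for 3 and 13. The 3 libraries of one group lay wholly above those of the other for 7057 genes (48.2%). The median log2 change of all tested genes was -0.02. DESeq2 called 2635 higher and 2441 lower genes. Without Msi2 knockdown replicate 1 the total fell to 3445, with 1587 lower, and without Msi1 knockdown replicate 2 there were 1738 lower genes. When a level of at least 5 CPM in 3 libraries was required, 51 genes were at least 2-fold higher and 66 lower.

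**Figure D2:**
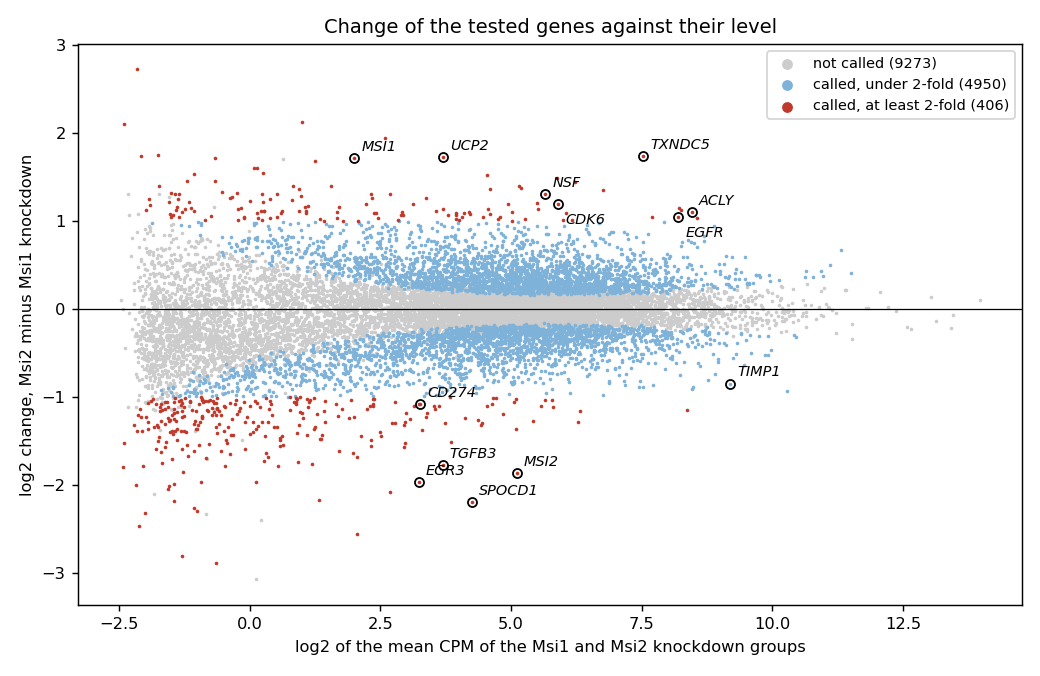
Log2 change (Msi2 minus Msi1 knockdown) of the 14629 tested genes against the log2 of their mean CPM in the compared groups; grey points were not called, blue points called under 2-fold and red points called at 2-fold or more, with 13 genes circled and named. The 4950 blue points lie between -1 and 1, and the red points with negative change gather at low levels.

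Where the control stood relative to these groups was read from the group means. Among the 2-fold genes, the control mean lay between the compared groups and nearer the Msi2 knockdown for 184 of 406 (45.3%), and nearer the Msi1 knockdown for 87 (21.4%). It was below both for 79 (19.5%) and above both for 56 (13.8%). Over all called genes the shares were 33.8%, 23.3%, 21.1% and 21.8%, in the same order. The double knockdown mean lay between the groups for most of the 2-fold genes, nearer the Msi2 knockdown for 188 and nearer the Msi1 knockdown for 133. The double knockdown libraries stood apart in their slope of level against transcript length. It was -0.018 to 0.053 for them, while every library of the remaining groups had 0.103 or more. The slope also varied within the compared groups, from 0.103 to 0.190 in the Msi1 knockdown and 0.116 to 0.207 in the Msi2 knockdown. Whether the low slopes shifted the double knockdown levels given here and below was not tested.

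The 12 largest rises among genes of at least 10 CPM were led by TXNDC5, which forms disulfide bonds in proteins of the endoplasmic reticulum. It was at 69.2, 96.1 and 89.1 CPM in the Msi1 knockdown and at 273, 292 and 291 CPM in the Msi2 knockdown. The Msi1 knockdown libraries were all below the lowest Msi2 knockdown library, whose group mean of 285 was close to the 299 CPM of control. The change was log2 1.74 ± 0.11 (edgeR adjusted p = 2.3e-06). UCP2, an inner-membrane carrier of mitochondria, had 7.13, 5.07 and 5.71 CPM against 21.1, 18.1 and 20.9 CPM (log2 1.73 ± 0.12). Its control mean was 14.9 CPM, between the groups.

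Of the other rises, SWAP70, which acts on Rac and actin, rose by 1.49 ± 0.08, and CYTH3, an exchange factor for ARF GTPases, by 1.2 ± 0.06. NSF, the ATPase that takes SNARE complexes apart, had 28.8, 26.6 and 30.8 CPM against 73.8, 67.3 and 74.05 CPM (1.31 ± 0.08). Its control mean of 86.7 CPM was above both. The ubiquitin ligase RNF144A rose by 1.36 ± 0.08, the histidine methyltransferase CARNMT1 by 1.53 ± 0.07, EFCAB14 by 1.36 ± 0.06 and ITFG3 by 1.44 ± 0.07. TMED7-TICAM2, a readthrough transcript that shares sequence with its neighbours and so has an uncertain count, rose by 1.26 ± 0.14. Across the 12, no edgeR adjusted p exceeded 5.8e-05. For 8 of them the control mean lay between the groups and nearer the Msi2 knockdown, and for 4 it was above both. The double knockdown mean lay between the groups for each of the 12, nearer the Msi1 knockdown for 9.

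The largest falls, apart from MSI2, began with SPOCD1, known from piRNA-directed silencing in germ cells. It was at 27.98, 31.1 and 34.1 CPM in the Msi1 knockdown and at 6.86, 7.96 and 5.67 CPM in the Msi2 knockdown (log2 -2.19 ± 0.12, edgeR adjusted p = 7.2e-07). Its control mean was 4.68 CPM, below both groups. The endosomal GTPase RAB7B had 10.6, 10.1 and 10.4 CPM against 2.28, 2.61 and 2.50 CPM (log2 -2.08 ± 0.10). TGFB3, a ligand of the TGF-beta family, had 16.98, 20.8 and 21.98 CPM against 5.84, 6.47 and 5.28 CPM (-1.77 ± 0.11), with 8.44 CPM in control between them. Msi1 knockdown levels of these 3 genes were thus the high ones of the comparison.

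Further falls were KCND1, a potassium channel (-1.57 ± 0.11), CHI3L2, a chitinase-like secreted protein (-1.52 ± 0.10), the integrin subunit ITGB8 (-1.51 ± 0.12), MLLT11 (-1.38 ± 0.09), the long non-coding RNA DANCR (-1.36 ± 0.07) and the transcription factor BATF2 (-1.32 ± 0.14). CDH5, the cadherin of endothelial junctions, was at 26.1, 31.8 and 33.7 CPM in the Msi1 knockdown and at 12.2, 12.7 and 12.2 CPM in the Msi2 knockdown (-1.31 ± 0.09), with 6.44 CPM in control. None of the other 4 tested endothelial markers was called. EMCN was at means of 20.04 and 21.9 CPM, near the level of CDH5, while ESAM (2.32 and 2.22 CPM), PECAM1 (0.772 and 0.622 CPM) and VWF (0.181 and 0.353 CPM) were lower. Across the 11 falls, no edgeR adjusted p exceeded 4.3e-05. The control mean was between the groups and nearer the Msi2 knockdown for 7 of them and below both for 4. No gene among these 23 had a control mean nearer the Msi1 knockdown.

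**Figure D3:**
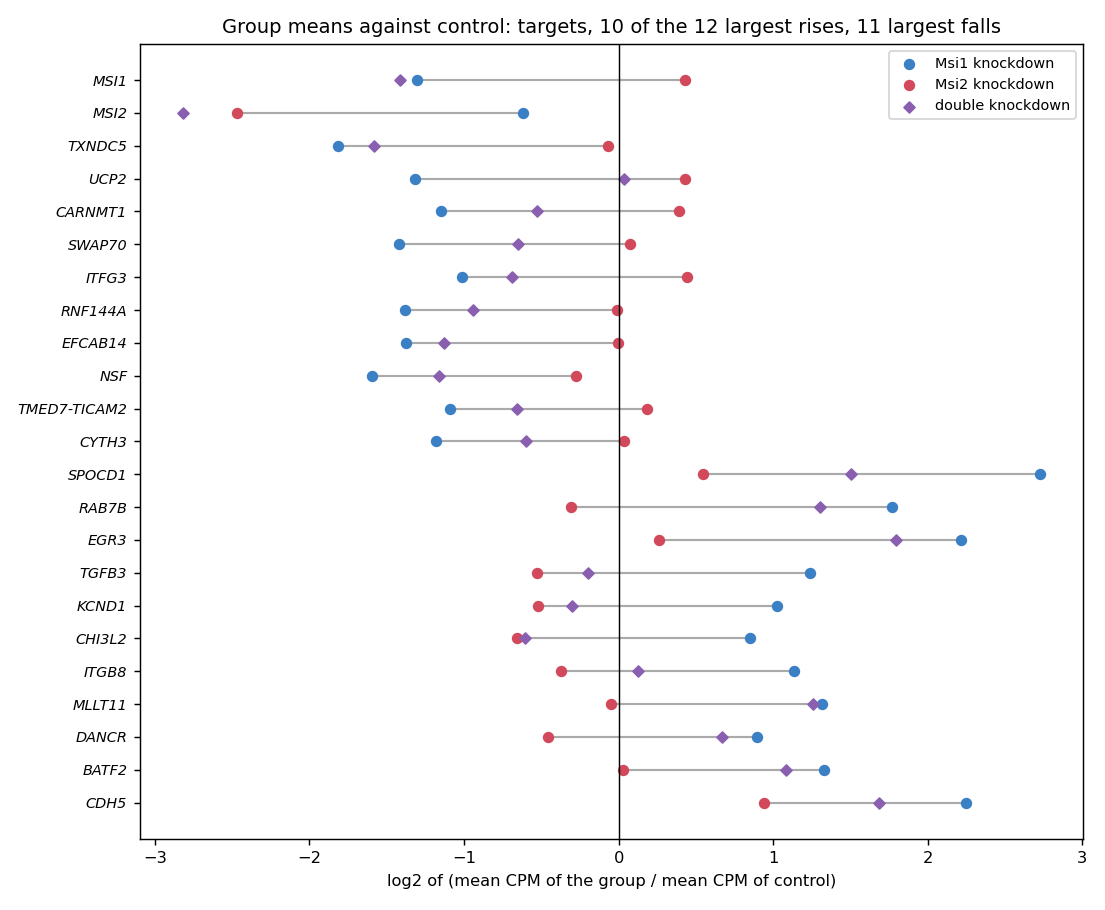
Log2 of the group mean over the control mean for MSI1, MSI2, 10 of the 12 largest rises and the 11 largest falls; blue and red points are the Msi1 and Msi2 knockdown, purple diamonds the double knockdown, and the black line the control level. For the 21 genes below the targets the red point lies nearer the control line than the blue one, and the purple diamond lies between them.

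The gene lists below are described by how many tested members were called and by their median, to be read against 18.7% higher, 18% lower and a median of -0.02 over all tested genes. Up to 4 members with the smallest p are named from each list. Members named beyond those were chosen after their values were seen.

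Lipid synthesis genes were more often higher than lower in the Msi2 knockdown. Of 24 tested genes of cholesterol synthesis and its control, 16 were higher (66.7%), 0 lower and 8 not called (median log2 0.36). The count stayed at 14 to 16 higher and 0 lower with any 1 library left out. INSIG1, a sterol-regulated anchor of the SREBP pathway, was at 70.5, 71.3 and 73.7 CPM in the Msi1 knockdown and at 112, 123 and 131 CPM in the Msi2 knockdown (0.75 ± 0.07, edgeR adjusted p = 2.4e-05). ACAT2, the cytosolic thiolase that starts the pathway, had 55.2, 46.7 and 47.6 CPM against 90.8, 79.9 and 94.9 CPM (0.82 ± 0.09). HMGCS1, which makes HMG-CoA, had 57.96, 54.9 and 54.3 CPM against 81.7, 78.8 and 84.8 CPM (0.54 ± 0.06). The Msi2 knockdown libraries were the higher ones for each. The groups did not overlap for any of the 16 called genes, nor for 48.2% of all tested genes, and a call itself favours this.

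Along the pathway, the mevalonate enzymes MVK (0.52 ± 0.08) and MVD (0.50 ± 0.07), squalene synthase FDFT1 (0.61 ± 0.08), squalene epoxidase SQLE (0.50 ± 0.07) and the later enzymes MSMO1 (0.49 ± 0.07) and HSD17B7 (0.48 ± 0.06) rose. So did the transcription factor SREBF2 (0.41 ± 0.07), which switches these genes on. The control mean was below both groups for 0 of the 16 called genes. It was above both for 6, between and nearer the Msi2 knockdown for 6, and nearer the Msi1 knockdown for 4.

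In the fatty acid and acetyl-CoA list, 11 of 24 were higher, 3 lower and 10 not called (median 0.18). ACLY, the citrate lyase that supplies cytosolic acetyl-CoA, was at 228, 219 and 217 CPM in the Msi1 knockdown and at 504, 460.3 and 475 CPM in the Msi2 knockdown. The groups were far apart, and the Msi2 knockdown was near the 519.6 CPM of control (1.1 ± 0.07, edgeR adjusted p = 2.9e-06). Fatty acid synthase FASN had 429, 443 and 435 CPM against 726, 645 and 641 CPM (0.61 ± 0.08). CPT1A, which brings fatty acids into mitochondria for breakdown, was also higher (0.48 ± 0.06), as were the desaturases SCD (0.67 ± 0.11) and FADS2 (0.42 ± 0.08). The elongase ELOVL6 was lower (-0.71 ± 0.08).

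The EGF receptor and other genes linked to Musashi differed as well. EGFR was at 158, 202 and 212 CPM in the Msi1 knockdown and at 387, 438 and 369 CPM in the Msi2 knockdown, with a control mean of 379.9 CPM. The Msi1 knockdown libraries were all lower, by more than the spread of either group (log2 1.05 ± 0.11, edgeR adjusted p = 4.2e-05). Its double knockdown mean was 163 CPM, below both. Of the 10 tested EGF receptors and ligands, 2 were higher and 2 lower. ERBB3 was the other one higher (0.34 ± 0.09), and the ligands NRG2 (-0.85 ± 0.19) and HBEGF (-0.26 ± 0.07) were lower. Without Msi1 knockdown replicate 2 or 3 or Msi2 knockdown replicate 1, only 1 gene of this list was lower.

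Of 23 tested genes with reported ties to Musashi proteins, 9 were higher, 3 lower and 11 not called (median 0.10). Besides EGFR, the integrin subunit ITGB4 was at 206, 258 and 265 CPM in the Msi1 knockdown and at 421, 451 and 402 CPM in the Msi2 knockdown (0.79 ± 0.10). The TGF-beta receptor TGFBR1 rose by 0.64 ± 0.08, the BMP receptor BMPR1A by 0.52 ± 0.08 and the adhesion receptor CD44 by 0.50 ± 0.10. CDKN1A, the cell cycle inhibitor p21, was lower, with 15.03, 12.8 and 14.01 CPM against 8.79, 8.24 and 9.44 CPM (-0.67 ± 0.09). MET, the HGF receptor, had 29.5, 27.5 and 30.1 CPM against 36.2, 34.5 and 36.03 CPM, both below the 41.6 CPM of control (0.28 ± 0.07, edgeR adjusted p = 0.006). HMGA2 had 0.987, 0.984 and 0.983 CPM against 0.651, 0.877 and 0.526 CPM and did not pass (-0.53 ± 0.24, edgeR adjusted p = 0.105). NUMB is listed at 0 in all 12 libraries, so nothing can be said of it.

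Among 30 tested RNA-binding proteins of stem cells and neurons, MSI1 and MSI2 included, 10 were higher and 4 lower. FXR1, a relative of the fragile X protein, was at 245, 224 and 220.4 CPM in the Msi1 knockdown and at 386, 349 and 413 CPM in the Msi2 knockdown (0.72 ± 0.08). CPEB2, which binds polyadenylation elements, rose by 0.70 ± 0.12, QKI by 0.34 ± 0.06 and PCBP1 by 0.47 ± 0.09. Without Msi1 knockdown replicate 3 the list had 6 higher. It had 2 lower without Msi1 knockdown replicate 2 and 1 without Msi2 knockdown replicate 1.

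Musashi sites hold the letters UAG, so their density in 3′ untranslated regions was set beside the calls. In GENCODE 29, 12361 tested genes had a 3′ region of at least 200 bases, and the longest of each gene was read on the transcript strand. The median density was 11.1 per kilobase for higher genes, 11.3 for lower genes and 11.1 for genes not called. For genes at least 2-fold higher or lower it was 9.83 (124 genes) and 10.4 (196 genes). The letters G and C made up a median of 47.5% and 45.2% of the 3′ regions of these 2-fold genes, against 43.0% over all. The Spearman correlation of density with log2 change was -0.02 across these genes, which are not independent replicates. For the longer string GUAG it was also -0.02. A match to such short letters is a description and not a site.

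Immediate early genes, which respond within minutes to growth factors, were mostly lower in the Msi2 knockdown. Of 21 tested, 12 were lower (57.1%), 4 higher and 5 not called (median -0.36), and with any 1 library left out 11 were lower. Without Msi2 knockdown replicate 1, 2 were higher. EGR3, a zinc-finger transcription factor, was at 15.8, 14.6 and 14.4 CPM in the Msi1 knockdown and at 3.78, 3.88 and 3.88 CPM in the Msi2 knockdown. The difference was many times the spread within either group (log2 -1.97 ± 0.08, edgeR adjusted p = 5.2e-07), and control cells had 3.31, 3.16 and 3.16 CPM. IER3 had 33.4, 31.5 and 28.1 CPM against 12.6, 12.01 and 13.8 CPM (-1.29 ± 0.09). JUN, a subunit of AP-1, had 129.96, 117 and 114 CPM against 81.3, 72.8 and 83.3 CPM (-0.62 ± 0.08). Its control mean lay below both group means, and the double knockdown mean of 138 CPM above both.

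EGR4 (-1.97 ± 0.26, at means of 1.73 and 0.445 CPM), FOS (-0.84 ± 0.11), EGR1 (-0.49 ± 0.07) and EGR2 (-0.98 ± 0.25) were lower too. The nuclear receptor NR4A1 went the other way, with 2.91, 3.89 and 3.28 CPM in the Msi1 knockdown and 7.49, 6.92 and 7.43 CPM in the Msi2 knockdown (1.1 ± 0.12), and FOSL2 rose by 0.30 ± 0.06. In the list of ERK feedback and output, 6 of 21 were higher and 6 lower (median -0.10). IER3, given above, is also in this list and was lower. The feedback inhibitors SPRY4 (0.51 ± 0.07) and SPRY2 (0.44 ± 0.07) and the ETS factor ETV5 (0.43 ± 0.07) were higher.

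Since the immediate early and cholesterol lists had most of their calls in one direction, the 250 bases before the RefSeq start of their genes were searched on both strands. Serum response factor is known to bind the CArG box at immediate early genes, and SREBP proteins the sterol element, searched here as TCACNCCAC. A CArG box was found for 2 of the 10 lower immediate early genes with a window, against 1.45% of tested genes with one and 1 of 4 list members not called. The sterol letters were found for 1 of the 13 higher cholesterol genes with a window, against 1.14% of tested genes, and also for 1 of the 10 lower immediate early genes. The windows of these 3 genes are shown for where the letters lie, in GRCh38.p14, read along each gene, with matches in capitals. EGR1 is chr5:138465229-138465478 (+ strand), with matches that start 105 and 83 bases before the start. EGR2 is chr10:62816367-62816616 (- strand), with its match 71 bases before. SREBF2 is chr22:41832855-41833104 (+ strand), with its match 133 bases before.
EGR1: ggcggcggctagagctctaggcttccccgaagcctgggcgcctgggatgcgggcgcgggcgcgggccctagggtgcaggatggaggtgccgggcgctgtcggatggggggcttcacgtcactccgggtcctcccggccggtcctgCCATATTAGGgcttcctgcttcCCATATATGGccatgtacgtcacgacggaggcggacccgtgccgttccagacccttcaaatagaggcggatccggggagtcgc
EGR2: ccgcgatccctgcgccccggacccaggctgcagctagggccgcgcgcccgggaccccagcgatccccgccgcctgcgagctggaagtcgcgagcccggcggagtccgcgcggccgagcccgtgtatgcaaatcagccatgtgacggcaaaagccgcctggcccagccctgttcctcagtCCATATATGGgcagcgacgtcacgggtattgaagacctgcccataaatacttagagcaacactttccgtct
SREBF2: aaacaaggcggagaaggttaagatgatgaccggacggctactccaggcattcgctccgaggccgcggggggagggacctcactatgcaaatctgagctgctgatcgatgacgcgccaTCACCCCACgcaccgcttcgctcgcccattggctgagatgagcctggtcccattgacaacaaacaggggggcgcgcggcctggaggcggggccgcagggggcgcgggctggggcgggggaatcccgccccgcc
A match is a description of letters, and a window without one says nothing of the factor.

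Inflammatory and antigen presentation genes were more often lower than higher in the Msi2 knockdown. CD274, which encodes the checkpoint ligand PD-L1, was at 11.1, 13.6 and 14.3 CPM in the Msi1 knockdown and at 6.19, 6.43 and 5.91 CPM in the Msi2 knockdown. Control cells were lower than both, with 2.33, 2.50 and 2.98 CPM. The change was log2 -1.08 ± 0.10 (edgeR adjusted p = 2.3e-05). Of 22 tested genes of immune checkpoints and antigen presentation, 12 were lower (54.5%), 1 higher and 9 not called (median -0.27). Leaving out 1 library gave 7 to 12 lower genes, the fewest without Msi2 knockdown replicate 1. NLRC5, an activator of MHC class I genes, changed by -0.72 ± 0.10, the peptide transporter subunit TAP2 by -0.56 ± 0.08 and PDCD1LG2, the ligand PD-L2, by -1.7 ± 0.29 at a mean of 0.858 and 0.257 CPM. HLA-B (-0.24 ± 0.08) and HLA-C (-0.31 ± 0.07) are near-identical in part, so their split of reads is uncertain.

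Of 25 NF-kB and inflammatory cytokine genes, 8 were lower, 2 higher and 15 not called (median -0.13). TNFAIP3, a feedback inhibitor of NF-kB, was at 27.2, 28.9 and 32.1 CPM in the Msi1 knockdown and at 17.3, 16.8 and 16.6 CPM in the Msi2 knockdown (-0.81 ± 0.08). Its control mean of 12.5 CPM was below both. The higher count was 1 without Msi1 knockdown replicate 2 or 3 and 0 without Msi2 knockdown replicate 1. BIRC3, an inhibitor of apoptosis, changed by -0.46 ± 0.07, the chemokine CXCL2 by -0.65 ± 0.10 and NFKBIB by -0.55 ± 0.08. For 5 of the 8 lower genes the control mean was below both groups, against 29.6% of all lower genes. The type I interferon list had 8 higher and 5 lower of 33, with IFIT1 (0.57 ± 0.07) and IFIT2 (0.38 ± 0.07) higher and PARP9 (-0.44 ± 0.07) and ISG20 (-0.48 ± 0.10) lower. For 7 of the 8 higher interferon genes the control mean lay above both groups, against 29.1% of all higher genes. The higher count was 5 without Msi1 knockdown replicate 2 or 3 or Msi2 knockdown replicate 1, and the lower count fell to 3 without the first of these and 2 without the last.

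**Figure D4:**
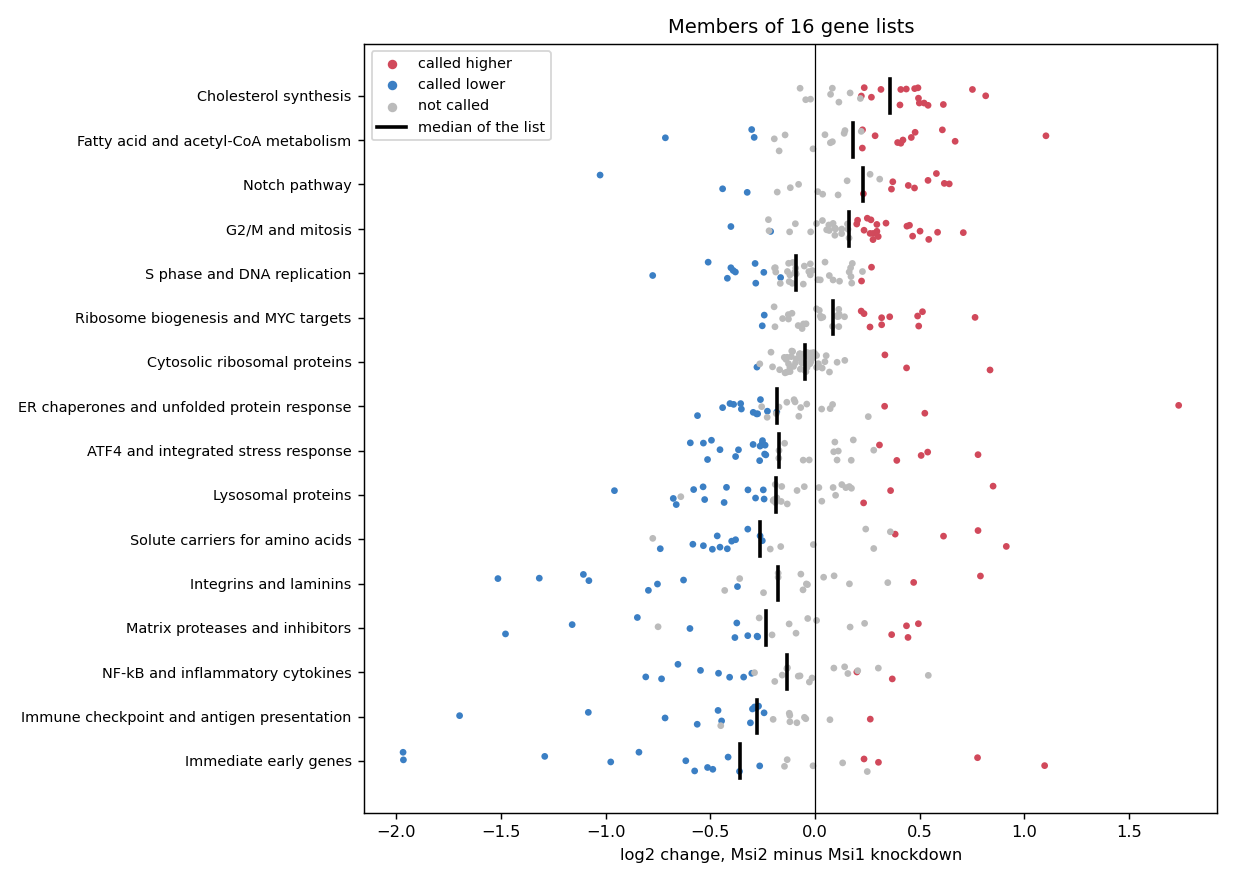
Log2 change (Msi2 minus Msi1 knockdown) of the tested members of 16 gene lists; each point is a gene, red where called higher, blue where called lower and grey where not called, and black bars are list medians. Cholesterol synthesis has the median farthest to the right (0.36) and immediate early genes the one farthest to the left (-0.36), and several lists hold members on both sides.

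Matrix and adhesion genes differed in both directions. Of 29 TGF-beta targets and matrix genes, 6 were higher and 9 lower (median -0.07). LOXL2, which cross-links collagen, was at 163, 203 and 204 CPM in the Msi1 knockdown and at 402, 448 and 403 CPM in the Msi2 knockdown (1.12 ± 0.10). COL5A1, a collagen chain, rose by 0.93 ± 0.10. LTBP2, a protein of elastic fibres, was lower (-0.95 ± 0.08), as was TGFB3. The control mean of LOXL2, 294 CPM, lay between the groups.

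Of 22 matrix proteases and inhibitors, 9 were lower and 4 higher (median -0.24). The count of lower genes was 5 to 13 with 1 library left out, the fewest without Msi2 knockdown replicate 1 and the most without Msi1 knockdown replicate 1. TIMP1, an inhibitor of metalloproteinases, had 680.2, 779 and 781 CPM in the Msi1 knockdown and 389, 436 and 429.9 CPM in the Msi2 knockdown (-0.85 ± 0.09), with 366 CPM in control. The plasminogen activator PLAT (-1.48 ± 0.17) and the serpin SERPINE2 (-1.16 ± 0.18) were lower, and the membrane-bound MMP15 higher (0.49 ± 0.08).

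Of 23 integrins and laminins, 8 were lower and 2 higher (median -0.18). The higher count was 1 with any 1 library left out except Msi2 knockdown replicate 2. The collagen-binding ITGA2 (-1.32 ± 0.16) and the laminin-binding ITGA3 (-0.75 ± 0.09) were lower with ITGB8, while ITGB4, the hemidesmosome subunit, was higher as given above. Of 20 epithelial junction genes 5 were higher and 2 lower, with the plakoglobin gene JUP at 21.8, 20.8 and 18.2 CPM against 46.7, 40.1 and 45.7 CPM (1.11 ± 0.09), desmoplakin DSP at 0.57 ± 0.06 and TJP3 at 0.97 ± 0.12. CLDN1, of tight junctions, was lower, with 201, 236 and 243 CPM against 115, 128 and 127 CPM (-0.89 ± 0.08). Of 9 mesenchymal genes, 4 were lower, CDH5, TGFBI (-0.51 ± 0.07) and MMP14 (-0.60 ± 0.12) among them, and ZEB1 was higher (0.31 ± 0.06). Of 17 tested keratins, nestin and lamins, 3 were higher and 3 lower, with KRT15 (-0.98 ± 0.10) and KRT19 (-0.57 ± 0.08) lower and LMNB1 (0.48 ± 0.08) and KRT81 (1.72 ± 0.32) higher. KRT81 has close relatives, and its count is uncertain. The lower count was 8 without Msi1 knockdown replicate 3. Single libraries stood apart for some keratins that were not called: KRT6A had 177, 37 and 1 counts in the Msi1 knockdown and 1, 29 and 5 in the Msi2 knockdown, and KRT14 had 170, 45 and 1 against 10, 28 and 18. In the YAP and TEAD list 8 of 23 were higher and 3 lower, with 2 higher without Msi1 knockdown replicate 2 or Msi2 knockdown replicate 1 and 3 without Msi1 knockdown replicate 3. The tissue factor gene F3 (-1.43 ± 0.14), the YAP partner WWTR1 (-0.65 ± 0.08) and DLC1 (-0.41 ± 0.08) were lower, and TEAD2 higher (0.35 ± 0.07).

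Cell cycle genes were listed by phase. Of 42 genes of G2/M and mitosis, 20 were higher (47.6%), 2 lower and 20 not called (median 0.16). Of 44 S phase and replication genes, 10 were lower, 2 higher and 32 not called (median -0.09). ECT2, an exchange factor that acts in cytokinesis, was at 296, 273 and 288 CPM in the Msi1 knockdown and at 475, 449 and 488 CPM in the Msi2 knockdown (0.71 ± 0.08, edgeR adjusted p = 4.7e-05). CDC25B, a phosphatase that activates mitotic CDK, had 207, 182 and 183 CPM against 297, 278 and 291 CPM (0.59 ± 0.08). The control mean lay between the groups for 15 of the 20 higher G2/M genes. Over all higher genes it lay between and nearer the Msi2 knockdown for 35.8% and nearer the Msi1 knockdown for 22.2%.

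ANLN (0.50 ± 0.07) and CDC20 (0.54 ± 0.08), of cytokinesis and anaphase, were higher, while TOP2A (-0.40 ± 0.08) and KIF11 (-0.21 ± 0.07) were the lower members. The proliferation marker MKI67 did not pass (-0.22 ± 0.09, edgeR adjusted p = 0.0799). The G2/M count fell to 11 or 12 without Msi1 knockdown replicate 2 or 3 or Msi2 knockdown replicate 1, and was 23 without Msi1 knockdown replicate 1. The lower count was 1 without Msi1 knockdown replicate 2 or 3 or Msi2 knockdown replicate 1 or 2. In S phase, GINS1, of the replicative helicase, had 43.1, 39.1 and 42.4 CPM against 22.7, 24.9 and 25.7 CPM (-0.77 ± 0.07). E2F1 (-0.40 ± 0.06), ORC6 (-0.38 ± 0.06) and MCM4 (-0.39 ± 0.07) were lower too. With 1 library left out, the S phase list had 7 to 9 lower and 0 to 7 higher members, with 7 higher without Msi1 knockdown replicate 1, 6 without Msi2 knockdown replicate 2 and 0 without Msi1 knockdown replicate 2 or 3 or Msi2 knockdown replicate 1.

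Among G1 regulators, 7 of 19 were higher and 5 lower. CDK6, a kinase that starts G1 progression, was at 32.3, 37.8 and 38.6 CPM in the Msi1 knockdown and at 89.5, 79.2 and 81.98 CPM in the Msi2 knockdown (1.2 ± 0.08), with 53.5 CPM in control between them. The list's lower count was 3 without Msi1 knockdown replicate 2. The retinoblastoma genes RB1 (0.60 ± 0.07) and RBL2 (0.42 ± 0.06) were higher as well. Of 28 p53 targets, 8 were lower and 6 higher (median 0.10). MDM2, the p53 ubiquitin ligase, had 71.9, 71.7 and 75.2 CPM against 42.7, 46.5 and 43.4 CPM (-0.73 ± 0.06). The nuclease AEN was lower (-0.82 ± 0.07) and TP53INP1 higher (0.65 ± 0.08), the latter at 7.26 and 11.5 CPM against 24.5 in control. Without Msi2 knockdown replicate 1 the p53 list had 3 higher and 5 lower. Of 10 tested replication-dependent histones 3 were lower and 0 higher, all from near-identical families, with HIST1H2BK at -1.23 ± 0.13. Only 1 was lower under DESeq2, or without Msi1 knockdown replicate 2 or 3 or Msi2 knockdown replicate 1 or 2. In the apoptosis list 8 of 35 were higher and 6 lower, with the inflammatory protease CASP4 (-0.46 ± 0.06) and the decoy receptor TNFRSF10D (-0.66 ± 0.08) lower. The higher count was 5 without Msi1 knockdown replicate 2 or 3.

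Stress response genes were more often lower than higher. In the ATF4 and integrated stress response list, 15 of 32 were lower (46.9%) and 5 higher (median -0.17). The serine enzyme SHMT2 was at 145, 131 and 134 CPM in the Msi1 knockdown and at 92.1, 90.2 and 91.5 CPM in the Msi2 knockdown (-0.59 ± 0.07), with both group means below the control mean of 146 CPM. MTHFD2, its partner in mitochondrial folate metabolism, went the other way (0.54 ± 0.08), as did CTH (0.51 ± 0.07) and the glycine carrier SLC6A9 (0.78 ± 0.11). The lower count was 8 to 13 with 1 library left out, 8 without Msi2 knockdown replicate 1 and 9 without Msi1 knockdown replicate 3. The higher count was 3 without either of these or Msi1 knockdown replicate 2. For 12 of the 15 lower genes the control mean was below both groups, against 29.6% of all lower genes.

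Of 29 endoplasmic reticulum chaperones and unfolded protein response genes, 12 were lower and 3 higher (median -0.18). This count was less stable, with 3 to 15 lower when 1 library was left out: 3 without Msi2 knockdown replicate 1, 5 without Msi1 knockdown replicate 2 or 3, and 8 without Msi2 knockdown replicate 3. CRELD2 (-0.56 ± 0.07) and the degradation adaptor SEL1L (-0.44 ± 0.10) were lower, and the stress sensor ERN1 higher (0.53 ± 0.11) with TXNDC5. Of 19 heat shock chaperones 1 was higher, HSPA4L (0.20 ± 0.06), and 1 lower, CHORDC1 (-0.28 ± 0.06). Of these chaperones, 6 were higher without Msi1 knockdown replicate 1, 3 without Msi2 knockdown replicate 2 and 0 without Msi1 knockdown replicate 2 or 3 or Msi2 knockdown replicate 1, and DESeq2 called 4.

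Amino acid carriers and lysosomal genes also had more lower members. Of 23 amino acid solute carriers, 12 were lower (52.2%) and 4 higher (median -0.26), with 8 to 13 lower when 1 library was left out. Without Msi1 knockdown replicate 2 or 3, or Msi2 knockdown replicate 1 or 3, it was 8. SLC36A1, a lysosomal amino acid exporter, had 32.9, 37.8 and 41.6 CPM against 22.6, 23.6 and 21.5 CPM (-0.74 ± 0.09). SLC43A2, a carrier of large neutral amino acids, was higher, with 11.8, 12.5 and 14.05 CPM against 24.5, 24.7 and 23.6 CPM (0.91 ± 0.08), as was the taurine carrier SLC6A6 (0.61 ± 0.10). Of 28 enzymes of amino acid breakdown and serine synthesis, 3 were higher and 6 lower. Without Msi1 knockdown replicate 1, 8 were higher and 5 lower, and 5 were higher without Msi2 knockdown replicate 2. PRODH, which begins proline breakdown, was at 2.77, 2.98 and 3.13 CPM in the Msi1 knockdown and at 6.74, 8.13 and 6.59 CPM in the Msi2 knockdown (1.27 ± 0.12). Both groups lay well below the control libraries at 19.6, 21.7 and 18.05 CPM. BCAT1, a branched-chain aminotransferase, was lower (-0.72 ± 0.09).

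Of 34 lysosomal genes, 12 were lower and 3 higher (median -0.18), with 5 higher without Msi2 knockdown replicate 2. The protease CTSC was at 82.2, 95.3 and 98.5 CPM in the Msi1 knockdown and at 43.7, 48.6 and 50.8 CPM in the Msi2 knockdown (-0.96 ± 0.08). The membrane protein LAMP1 (-0.68 ± 0.08) and the proton pump subunit ATP6V0A1 (-0.66 ± 0.09) were lower, and the cholesterol exporter NPC1 higher (0.85 ± 0.09). For 8 of the 12 lower genes the control mean was below both groups, against 29.6% of all lower genes. Among SNAREs, NSF and SNAPs 5 of 35 were higher and 7 lower, with STX7 (0.46 ± 0.08) higher and STX12 (-0.41 ± 0.07) and STX1A (-0.39 ± 0.08) lower. The lower count was 4 without Msi1 knockdown replicate 3 or Msi2 knockdown replicate 2, and 2 without Msi2 knockdown replicate 1.

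In glucose and hypoxia metabolism 9 of 36 genes were higher and 4 lower (median 0.11). NDRG1 had 9.24, 9.11 and 8.19 CPM against 20.8, 17.5 and 18.03 CPM (1.07 ± 0.09), and PFKFB3, a switch of glycolysis, 59.5, 58.6 and 59.8 CPM against 96.8, 90.6 and 96.2 CPM (0.66 ± 0.06). BNIP3L (0.77 ± 0.09) and the demethylase KDM3A (0.42 ± 0.06) were higher as well. Few respiratory chain genes were called. Of 37 nuclear-encoded respiratory chain genes 4 were higher, among them SDHA (0.27 ± 0.07), SDHB (0.43 ± 0.09) and CYC1 (0.26 ± 0.07), and 4 lower, NDUFB9 (-0.27 ± 0.07) among them. These counts hang on single libraries: 9 were higher without Msi1 knockdown replicate 1 or Msi2 knockdown replicate 2, and 2 without Msi1 knockdown replicate 2 or 3 or Msi2 knockdown replicate 1. The lower count was 1 without Msi1 knockdown replicate 2, 2 without Msi2 knockdown replicate 2 and 0 without Msi2 knockdown replicate 1. Of 13 mitochondrially encoded genes 2 were lower, ND3 (-0.52 ± 0.12) and ATP8 (-0.53 ± 0.14), and both overlap or adjoin other mitochondrial genes. The count was 1 without Msi1 knockdown replicate 2 or Msi2 knockdown replicate 1, and 0 with the length correction.

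Of 57 cytosolic ribosomal proteins, whose pseudogenes make counts uncertain, 53 were not called. RPL14 stood apart with 325, 282 and 275 CPM in the Msi1 knockdown and 517, 482 and 592 CPM in the Msi2 knockdown (0.84 ± 0.10), against a control mean of 545 CPM. RPL3 (0.44 ± 0.11) and RPL12 (0.33 ± 0.11) were the others higher, and RPL27 was lower (-0.28 ± 0.10). The lower count was 2 without Msi2 knockdown replicate 3 and 0 with any other library left out. Ribosome biogenesis and MYC targets had 10 of 35 higher and 2 lower. The nucleolar phosphoprotein NOLC1 was at 259, 249.6 and 256 CPM in the Msi1 knockdown and at 445, 419 and 447 CPM in the Msi2 knockdown (0.77 ± 0.07). WDR12 (0.49 ± 0.06), MYBBP1A (0.50 ± 0.07) and the helicase DDX21 (0.51 ± 0.08) were higher, with 6 higher genes without Msi1 knockdown replicate 2 and 1 lower without that library or Msi2 knockdown replicate 1 or 3.

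Of 21 Notch pathway genes, 9 were higher (42.9%), 3 lower and 9 not called (median 0.23). The receptors NOTCH1 (0.37 ± 0.08), NOTCH2 (0.54 ± 0.12) and NOTCH3 (0.48 ± 0.11) were higher. So were the HES and HEY family genes HES1 (0.45 ± 0.12), HES2 (0.58 ± 0.09) and HEYL (0.64 ± 0.15). Of the fringe glycosyltransferases that modify Notch, LFNG was higher, with 2.69, 2.60 and 2.98 CPM against 4.03, 4.29 and 4.41 CPM (0.62 ± 0.12), and MFNG lower, with 2.22, 2.67 and 2.66 CPM against 1.10, 1.42 and 1.19 CPM (-1.03 ± 0.17). NOTCH4 was lower (-0.44 ± 0.08). Among WNT genes 8 of 29 were higher and 3 lower, with NKD1 (0.69 ± 0.11) and SFRP1 (0.40 ± 0.08), both inhibitors, higher, and TCF7 (-0.47 ± 0.07) and the receptor FZD8 (-0.53 ± 0.09) lower. Without Msi2 knockdown replicate 1 the higher count was 5 for WNT and 5 for axon guidance genes. Of 39 axon guidance genes 9 were higher and 8 lower, with PLXND1, a semaphorin receptor, at 94.5, 110.2 and 111 CPM against 195, 199 and 183 CPM (0.86 ± 0.08). SEMA3D (-0.56 ± 0.06), SEMA3B (-0.67 ± 0.11) and ROBO4 (-0.58 ± 0.08) were lower.

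Of 27 NRF2 targets and metallothioneins, 7 were higher and 5 lower. AKR1C1, an aldo-keto reductase with near-identical relatives and so an uncertain count, had 61.00, 56.5 and 59.1 CPM in the Msi1 knockdown and 114, 109 and 123 CPM in the Msi2 knockdown (0.96 ± 0.07). TXNRD1, thioredoxin reductase, had 912, 802 and 843 CPM against 577, 516 and 568 CPM (-0.63 ± 0.09), and OSGIN1 was lower too (-0.71 ± 0.10). The metallothionein MT1E, again from a family of close copies, was higher (0.57 ± 0.09).

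Markers of other cells ranged from 0 counts to abundant. The 11 markers of acinar, ductal and islet cells summed to 0.257 to 0.523 counts per 1e6 of the library in the Msi1 knockdown and 0.0958 to 0.227 in the Msi2 knockdown, with 4 of the 11 (CELA3A, GCG, INS and PNLIP) at 0 in the 6 libraries. None of them was tested. The 8 endothelial markers summed to 49.8 to 59.4 in the Msi1 and 37.0 to 38.7 in the Msi2 knockdown, with CDH5 the called member. The 10 blood cell markers summed to 38.3 to 45.6 and 46.8 to 48.7, with CD3E at 0. CD68 (0.23 ± 0.07, means 37.2 and 44.00 CPM) and CD14 (0.71 ± 0.21, means 0.592 and 0.973 CPM) were higher. Neither was called without Msi1 knockdown replicate 1 or 2 or Msi2 knockdown replicate 1, and 1 of them without Msi1 knockdown replicate 3 or Msi2 knockdown replicate 2. The 12 fibroblast markers summed to 676 to 831 and 786 to 904, most of it from COL1A2 (means 367 and 448 CPM) and COL3A1 (386 and 368 CPM). COL1A2 was higher (0.28 ± 0.09) and DCN lower (-0.75 ± 0.24), and neither call held with any 1 library left out except Msi2 knockdown replicate 3. Of 6 genes that virus packaging cells express, 4 had fewer than 10 counts in each of the 6 libraries, INA among them with 0. LHX1 was at 20.1, 18.97 and 17.7 CPM against 9.60, 9.55 and 9.38 CPM (-1.005 ± 0.08). The list's sums were 22.05 to 23.6 and 12.3 to 12.9, most of it from LHX1. PAX2 did not pass (-0.27 ± 0.14, edgeR adjusted p = 0.153). The part of these genes in the results was not tested.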

How the data were processed

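The authors deposited estimated counts per gene for 12 libraries, as whole numbers and unscaled. The submitters' processing notes name kallisto 0.42.1 and CASAVA 1.4 without their roles. The sources used here name no transcript set and no strandedness. Kallisto assigns shared reads by a model, which leaves counts of near-identical genes uncertain.

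The 3 Msi2 and 3 Msi1 knockdown libraries, grouped by sample title, were fitted alone in edgeR 4.0.16 (R 4.3.3): filterByExpr by group (minimum count 10), TMM factors, a robust quasi-likelihood fit with 4 residual degrees of freedom and two-sided tests, adjusted by Benjamini-Hochberg over 14629 genes. Standard errors are the log2 change over the square root of F. CPM use TMM factors over all 12 libraries. An exact permutation test of 3 against 3 cannot go below p = 0.1, so single genes rest on the model across genes. Alternatives were DESeq2 1.42.0, other factors and filters, all libraries in the model, a replicate block, thinned counts, a transcript length correction and leaving out each library.

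Named genes are MSI1, MSI2, MET, HMGA2, the 12 largest rises and 12 largest falls (adjusted p below 0.05, at least 10 CPM in the higher group, no overlap of libraries) and up to 4 members per list with the smallest p. The comparison, the 39 pathway lists and 6 marker lists were chosen with earlier results of these data known. Genes named beyond this rule have the same alternatives. A few genes that the rule names are not reported here. Promoter windows are from RefSeq (GRCh38.p14) and matched 11595 tested genes. Transcript lengths and 3′ regions are from GENCODE 29.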

Additional observations from a re-analysis of the deposited data

How the results depend on the processing

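No named gene that was called reversed direction under the 14 alternatives. The total of 5356 called genes was 5073 to 6181 under RLE factors, DESeq2, no filter, all 12 libraries, thinning and the length correction. The stricter filter tested 10650 genes, called 4583, and left 51 genes at least 2-fold higher and 66 lower, against 133 and 273. Leaving out 1 library gave totals of 3445 to 5876, with 1858 to 3079 higher and 1587 to 2797 lower. By 2-fold it gave 124 to 168 higher and 213 to 423 lower, the 423 without Msi2 knockdown replicate 2. The cause was not tested. Between 63.6% and 99.9% of the called genes were also called by each alternative.

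Most named genes were chosen for a small p or a large change, which favours keeping a call. Of 192 genes named in the text or by the rule that were called, 174 kept their call in each alternative that tested them. The other 18 lost it in at least 1: HIST1H2BC in 9, CD14 and RPL27 in 7, HIST1H2AC, DCN, COL1A2 and KIF11 in 6, CD68, RPL12, ATP8 and HLA-B in 4, HBEGF, HSPA4L and CYC1 in 3, NDUFB9 and HES1 in 2, and ERBB3 and ND3 in 1.

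Same-numbered libraries had deviations from their group means that correlated at 0.17, 0.70 and -0.54, and not every library correlated best with its own number. Msi1 knockdown replicate 1 correlated at -0.81 with Msi2 knockdown replicate 2 and at 0.70 with Msi2 knockdown replicate 3. Deviations within a group depend on each other, and whether same-numbered libraries shared a batch was not tested. With the replicate number as a block, which does not model correlations across numbers, 2731 genes were higher and 2714 lower, 5445 in all. Depth limits calls for genes of few counts: MSI1 had 54 to 309 counts in the 6 libraries.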
